A study of Mus musculus with 18 samples.

Results

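The collagen genes outside type IV were followed in C2C12 myotubes, the multinucleate fibres that form when the mouse C2C12 myoblast line is differentiated, after treatment with the synthetic glucocorticoid dexamethasone (Dex). Members were all genes whose symbol in the platform's probe annotation is Col, a number, the letter a and a number, with every Col4 gene left out. The rule found 35 genes of the 19057 with a named probe: 11 fibrillar collagens, 7 FACIT collagens (fibril-associated collagens with interrupted triple helices), 3 network collagens and 14 others. Where a gene had several probes, the one with the highest mean log2 value on the 18 arrays was used, and 11 of the 35 genes had 1 probe only. RNA came from myotubes in DMEM with 2% horse serum that received 1 uM Dex or the vehicle ethanol (ETOH), at 0.01% of the medium volume, and was hybridised to Illumina mouse WG-6 bead arrays. Each treatment had 4 arrays at 6 h and 5 at 24 h, all from 1 cell line, with no genotype difference between the groups. The design text speaks of triplicates, whereas the labels number 4 and 5 replicates and do not tie them to cultures. The p-values therefore cover the spread among the arrays as deposited, part of which could be technical.

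Collagens are built from 3 chains that wind into a triple helix of Gly-X-Y repeats. Fibrillar collagens such as types I, III and V assemble into the rope-like fibrils of the endomysium and tendon, FACIT collagens sit on the surface of those fibrils, and network collagens form sheets or lattices. The remaining types include the beaded filaments of collagen VI, which link the muscle fibre's basement membrane to the matrix, the anchoring fibrils of collagen VII, the multiplexins XV and XVIII and several membrane-spanning collagens. Glucocorticoids are known to lower collagen synthesis in skin and bone. Of the chains a reader may look for, no probe was named Col6a3 or Col12a1 in the annotation used here, and these genes were not analysed here.

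The arrays of a group resembled each other, with correlations across genes of at least 0.993, which describe the arrays only. The deposited intensities had medians from 99.8 to 100.4 at 6 h and, at 24 h, from 85.2 to 86.8, so levels were compared within a time only. Deviations from the group means filled 5 of 6 possible directions at 6 h and 5 of 8 at 24 h, so the model counts 14 residual degrees of freedom where the values hold about 10. The counts of collagen genes and of the 5 gene lists below are therefore also given with those missing directions fitted as covariates. At 24 h the deviations of the arrays that share a replicate number ran against each other, from a correlation of -0.93 for the pair numbered 1 to -0.19 for the pair numbered 5.

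Because the deposited table used here has no detection p-values, the intensities of 1078 olfactory receptor (Olfr) genes, best known from the nose, served as a stand-in for background. Their 95th percentile was 104 in the ethanol and in the Dex arrays at 6 h, and 91.1 and 91.4 at 24 h. Of the 35 collagen genes, 23 read above this level in at least 1 group at 6 h and 19 at 24 h. Clearly above it at both times were the fibrillar Col1a1, Col1a2, Col3a1, Col5a1 and Col5a2, the FACIT gene Col16a1, the network gene Col8a1, and Col6a1, Col6a2, Col7a1 and Col18a1. Collagens of cartilage read low. Col2a1, Col9a2, Col9a3 and Col10a1 had means below this level in both groups at 24 h, and Col11a1 and Col11a2 just above it at 96.6 ± 5.54 and 97.9 ± 2.31 (SD, n = 5) with ethanol. Col9a1 also read above it at 24 h, at 109 ± 10.1 with ethanol and 94.4 ± 3.86 with Dex (SD, n = 5). The brightness of different probes does not rank genes, and the fold change of a gene near background is understated by the background in its value.

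**Figure D1:**
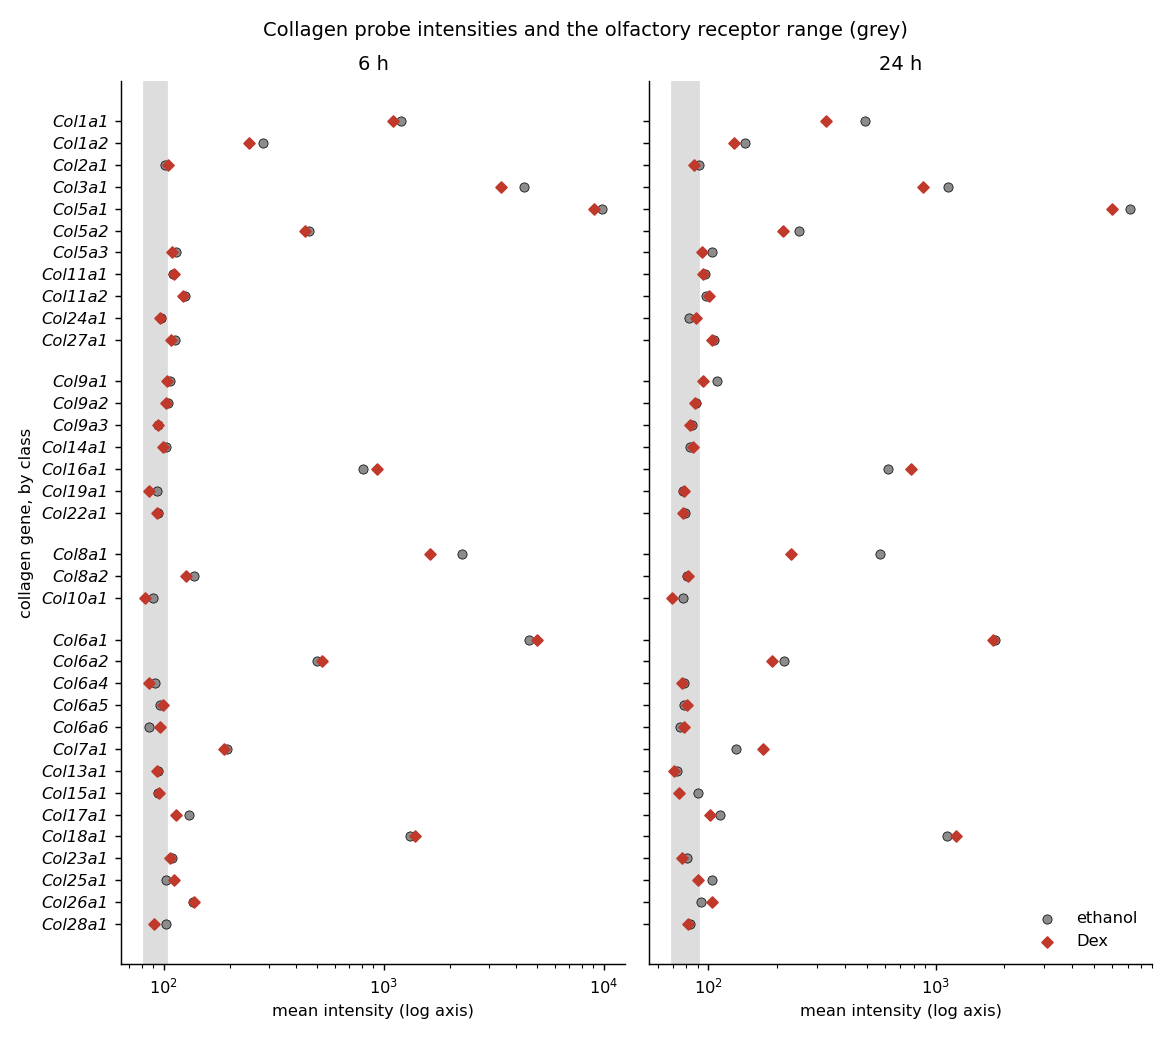
Mean intensity of each of the 35 collagen genes (log axis) at 6 h (left) and 24 h (right), ethanol as grey circles and Dex as red diamonds, with genes grouped by class. The grey band spans the 5th to the 95th percentile of 1078 olfactory receptor genes in the ethanol arrays (81.6 to 104 at 6 h, 69.4 to 91.1 at 24 h), and 12 genes at 6 h and 16 at 24 h had both groups below its upper edge or the Dex arrays' equivalent.

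Dex changed few collagen genes at 6 h and more of them, mostly downward, at 24 h. At 6 h 1 of the 35 genes was called, at an adjusted p under 0.05 in limma (2.86%), where 9.06% of all genes were called. At an unadjusted p under 0.05 there were 1 higher and 6 lower. The share of all genes at that unadjusted threshold was not counted. These unadjusted counts, and the unadjusted ones by class and list below, can therefore not be set against all genes. The called gene, Col3a1, was lower with Dex, and 4.39% of all genes were called lower and 4.67% higher. It missed the threshold once the missing directions were fitted, which left 0 of the 35 called at 6 h. At 24 h 9 of the 35 genes were called (25.7%), where 16.5% of all genes were called. Of these, 7 collagen genes fell, or 20.0% where 8.10% of all genes were called lower. The other 2, Col7a1 and Col16a1, rose, where 8.39% of all genes were called higher. With the missing directions as covariates 3 collagen genes fell at 24 h, namely Col8a1, Col1a1 and Col3a1, and Col7a1 and Col16a1 still rose. The median log2 fold change of the 35 genes was -0.03 at 6 h and -0.03 at 24 h, beside 0.00 and 0.00 over all genes. Of the 35 log2 fold changes, 23 were below 0 at 6 h and 24 at 24 h, where 48.8% and 50% of all genes were below 0. In a culture with several cell states, fewer cells of a type and less RNA per cell cannot be told apart in these values.

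**Figure D2:**
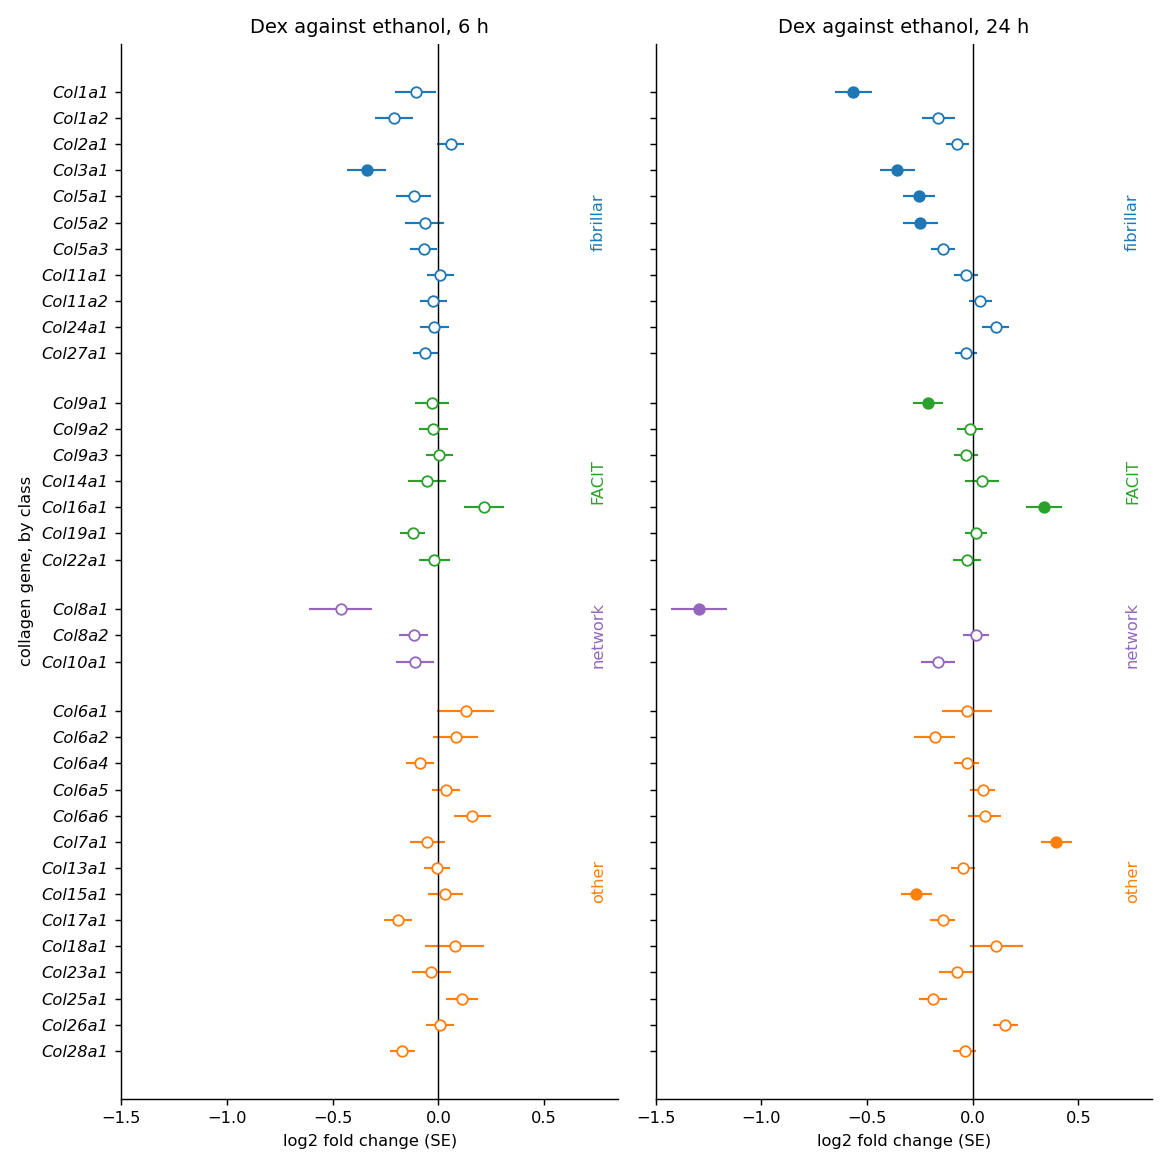
Log2 fold change of each collagen gene, Dex against ethanol, at 6 h (left) and 24 h (right), with the model's standard error as bars and classes in colour. Filled points were called in limma: Col3a1 alone at 6 h, and at 24 h 7 genes to the left of 0, with Col8a1 at -1.30, and 2 to the right, Col7a1 at 0.40 and Col16a1 at 0.34.

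To show the DNA just before the genes that moved, the 250 bases before the start of the collagen genes were taken from RefSeq promoter sequences (GRCm38.p6), which matched 28 of the 35 members. Col1a1, Col2a1, Col5a2, Col9a3, Col14a1, Col22a1 and Col26a1 had no entry. Printed are 2 genes that fell under each alternative tried at 24 h (Col8a1 and Col3a1) and the 2 that rose (Col7a1 and Col16a1). Capitals mark 4 short motifs searched on both strands: the GC box GGGCGG, bound by Sp1-type factors, the CCAAT box CCAAT, bound by NF-Y, the TATA box TATAAA, and AGAACA, a half-site of the glucocorticoid receptor element.
Col8a1, chr16:57754738-57754987, minus strand: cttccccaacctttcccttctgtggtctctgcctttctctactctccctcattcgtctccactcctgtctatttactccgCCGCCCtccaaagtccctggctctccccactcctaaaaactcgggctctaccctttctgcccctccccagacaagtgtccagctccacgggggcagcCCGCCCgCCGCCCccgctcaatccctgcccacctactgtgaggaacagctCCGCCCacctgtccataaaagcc
Col3a1, chr1:45311288-45311537, plus strand: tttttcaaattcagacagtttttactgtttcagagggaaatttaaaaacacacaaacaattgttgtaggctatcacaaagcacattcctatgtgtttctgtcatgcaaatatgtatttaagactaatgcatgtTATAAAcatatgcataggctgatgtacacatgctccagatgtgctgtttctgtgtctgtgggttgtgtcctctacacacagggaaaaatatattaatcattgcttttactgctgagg
Col7a1, chr9:108953336-108953585, plus strand: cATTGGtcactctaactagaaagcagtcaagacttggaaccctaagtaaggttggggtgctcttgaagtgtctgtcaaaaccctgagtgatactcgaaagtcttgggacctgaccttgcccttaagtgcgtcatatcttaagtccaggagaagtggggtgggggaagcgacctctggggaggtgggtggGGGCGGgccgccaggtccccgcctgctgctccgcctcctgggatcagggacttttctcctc
Col16a1, chr4:130047590-130047839, plus strand: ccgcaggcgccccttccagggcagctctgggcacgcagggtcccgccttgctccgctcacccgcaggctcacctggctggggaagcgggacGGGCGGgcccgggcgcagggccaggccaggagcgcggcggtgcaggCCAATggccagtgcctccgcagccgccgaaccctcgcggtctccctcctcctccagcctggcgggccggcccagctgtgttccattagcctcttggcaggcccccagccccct

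The Col8a1 window held 4 GC boxes, all as CCGCCC in the printed strand, and its bases were 60.8% G or C. The Col3a1 window held no GC box, 1 TATA match and 35.2% G or C, against a median of 52.4% over all 32851 windows. Col7a1 and Col16a1 each had 1 GC box and 1 CCAAT box, the latter as ATTGG before Col7a1, with 56.4% and 75.6% G or C. So the genes that fell and the genes that rose did not share one arrangement of these motifs. Across the collagen windows, 19 of 31 held a GC box (61.3%, against 32.7% of all windows), 10 held a CCAAT box (32.3% against 33.8%) and 5 a TATA match (16.1% against 12.4%). The half-site AGAACA occurred in 1 of the 31, before Col9a1, against 16.1% of all windows. A match describes letters in this window and is no evidence of binding, and its absence says nothing of sites elsewhere.

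Col8a1, which encodes a short-chain network collagen of vessel walls and of Descemet's membrane in the eye, had the largest change among the 35 genes at 24 h. The 5 ethanol arrays read 573, 757, 599, 465 and 446 and the 5 Dex arrays 232, 172, 210, 270 and 267 (568 ± 125 and 230 ± 41.0, SD, n = 5). Every Dex array lay below every ethanol array, by a wide gap. The log2 fold change was -1.30 (SE 0.13, limma adjusted p = 1.68e-07), so that ethanol exceeded Dex 2.45-fold. At 6 h the ethanol arrays read 2688, 1877, 2585 and 1897 and the Dex arrays 1734, 1701, 1518 and 1539. These groups did not overlap either, ethanol replicates 1 and 3 stood well above the others, and the log2 fold change of -0.46 (SE 0.15) missed the threshold (limma adjusted p = 0.0540). It passed in 4 of 16 alternatives, among them without ethanol replicate 2 or 4. The gene's other probe gave -0.48 at 6 h and -1.62 at 24 h (limma adjusted p = 0.0350 and 1.07e-09, over the 34885 named probes). The Dex effect was larger at 24 h than at 6 h by -0.83 on the log2 scale (SE 0.20, limma adjusted p = 0.0166). With the missing directions as covariates this difference had an adjusted p of 0.0524, and it passed under the other 25 alternatives.

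The other 2 network collagens were not called at either time. Col8a2, whose chain also builds collagen VIII, read 154, 134, 143 and 118 with ethanol and 120, 121, 129 and 134 with Dex at 6 h. At 24 h it read 78.0, 80.5, 85.8, 83.2 and 74.6 with ethanol and 82.6, 81.6, 77.3, 81.8 and 83.2 with Dex. The groups overlapped at both times, and both means at 24 h lay below the olfactory receptor 95th percentile. Its log2 fold changes were -0.12 (SE 0.07) and 0.02 (SE 0.06), with limma adjusted p of 0.344 and 0.891. Col10a1, the collagen of growth-plate cartilage, read 88.5, 80.7, 112 and 78.1 with ethanol and 94.2, 73.1, 82.5 and 80.6 with Dex at 6 h. At 24 h it read 83.6, 75.3, 69.5, 81.7 and 76.5 with ethanol and 66.0, 70.8, 72, 65.9 and 69.6 with Dex. The groups overlapped at both times, all 4 means lay below the olfactory receptor 95th percentile, and the log2 fold changes of -0.11 and -0.17 did not pass (limma adjusted p = 0.526 and 0.180).

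Of the 11 fibrillar collagens, none rose and 4 fell at 24 h (Col1a1, Col3a1, Col5a1 and Col5a2). That is 36.4% lower, where 8.10% of all genes were called lower and 8.39% higher. The shares of all genes, here and elsewhere, include dim genes and were not matched to the collagen genes for intensity. With genes above the median intensity only, 2619 genes were called at 24 h, against 3142 over all genes. The part of intensity in these contrasts was not tested. The median log2 fold change of the 11 was -0.14. At an unadjusted p under 0.05 there were 0 higher and 5 lower. Col1a1, the main chain of type I collagen, read 524, 498, 427, 455 and 528 with ethanol and 309, 317, 362, 351 and 305 with Dex at 24 h. The groups did not overlap, and the log2 fold change was -0.56 (SE 0.09, limma adjusted p = 5.46e-05), from 487 ± 44.2 to 329 ± 25.8 (SD, n = 5). At 6 h Col1a1 read 1395, 1030, 1349 and 1036 with ethanol and 1182, 1202, 1004 and 1048 with Dex, and these groups overlapped (log2 fold change -0.11, SE 0.10, limma adjusted p = 0.578). The change at 24 h exceeded that at 6 h by -0.46 (SE 0.13, limma adjusted p = 0.0422). That difference passed in 10 of 26 alternatives, with adjusted p up to 0.137. Among others it was lost with the replicate block, and without ethanol replicate 2 or 4 or Dex replicate 1 or 2 at 6 h, or ethanol or Dex replicate 1, 2 or 5 at 24 h.

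Col3a1, the homotrimeric fibrillar collagen of reticular fibres, was the 1 member called at both times. At 24 h it read 1050, 1126, 1254, 1121 and 1101 with ethanol and 943, 867, 821, 883 and 900 with Dex, again without overlap. The log2 fold change was -0.36 (SE 0.08, limma adjusted p = 0.00386), and the gene's other probe gave -0.44 (limma adjusted p = 0.00871 over the named probes). At 6 h it read 4932, 3609, 5133 and 3734 with ethanol and 3277, 3149, 3564 and 3624 with Dex. The highest Dex array lay just above the lowest ethanol array, ethanol replicates 1 and 3 stood well above the rest, and the log2 fold change was -0.34 (SE 0.09, limma adjusted p = 0.0202). This call at 6 h held in 8 of 16 alternatives. It was lost with each time fitted alone, normexp background correction, the missing directions fitted, the mean of the gene's probes, and without ethanol replicate 1 or 3 or Dex replicate 1 or 2. The largest adjusted p among these alternatives was 0.213.

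Col5a1 and Col5a2 encode the chains of collagen V, which nucleates type I fibrils. Col5a1 read 6326, 7190, 7506, 7563 and 7105 with ethanol and 6848, 5487, 6064, 5689 and 5824 with Dex at 24 h. Dex replicate 1 lay above ethanol replicate 1, and the other arrays of the 2 groups were separate, giving -0.26 on the log2 scale (SE 0.08, limma adjusted p = 0.0215). Col5a2 read 215, 271, 257, 267 and 246 with ethanol and 258, 174, 224, 201 and 207 with Dex, so the arrays numbered 1 crossed in the same way (-0.25, SE 0.08, limma adjusted p = 0.0389). Col5a1 kept its call in 13 of 19 alternatives and Col5a2 in 7 of 19, and neither kept it once the missing directions were fitted. Without 1 array, the call of Col5a1 was lost for ethanol replicate 3 or 4 and Dex replicate 2 or 4, and that of Col5a2 for these and for ethanol replicates 2 and 5 and Dex replicate 5 (adjusted p up to 0.0698 and 0.518 over the alternatives). Of the other 4 probes of Col5a2 none was called, and the mean of its probes gave -0.04. At 6 h neither gene passed the test (-0.12 and -0.07). Col3a1 and Col5a2 are neighbours in the RefSeq annotation, with no protein-coding gene between their starts.

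Col1a2 encodes the partner chain of Col1a1 in type I collagen, and it did not pass the test at either time. At 24 h it read 147, 143, 138, 151 and 149 with ethanol and 129, 130, 138, 133 and 121 with Dex, groups that met at 138 (log2 fold change -0.16, SE 0.08, limma adjusted p = 0.179). At 6 h it read 334, 281, 287 and 229 with ethanol and 278, 258, 217 and 221 with Dex (-0.21, SE 0.09, limma adjusted p = 0.154). The ratio of Col1a1 to Col1a2 within an array was tested for this reason, after the values had been seen, along with Col5a1 to Col5a2 and Col6a1 to Col6a2 at both times. At 24 h the log2 ratio of Col1a1 to Col1a2 was 1.74 ± 0.12 with ethanol and 1.34 ± 0.06 with Dex (SD, n = 5), a difference of -0.40. The exact two-sided permutation test gave p = 0.00794, the smallest that 5 against 5 arrays allow, and 0.0476 after adjustment over the 6 tests. The test treats the arrays as independent. It does not allow for the missing directions or for the opposed deviations of same-numbered arrays at 24 h. Without both arrays numbered 1 the difference was -0.36, where 4 against 4 arrays cannot pass after adjustment over 6 tests. At 6 h the difference was 0.10 (exact permutation p = 0.229). Col1a2 was the dimmer of the 2, so background in its values would understate its change more. With normexp background correction, which kept an offset, the difference was -0.40. That correction need not remove all background, and the part of any remaining background in the difference was not tested. For the chains of collagens V and VI at 24 h the differences were -0.01 (exact permutation p = 0.857) and 0.15 (exact permutation p = 0.119).

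The other 6 fibrillar genes were not called at either time. Col5a3, a further chain of collagen V, had -0.07 at 6 h and -0.14 at 24 h (SE 0.06 each, limma adjusted p = 0.583 and 0.0906). The cartilage collagens Col2a1, Col11a1 and Col11a2 and the minor fibrillar genes Col24a1 and Col27a1 had log2 fold changes between -0.07 and 0.11 over both times. Another probe of Col24a1, at 93.5 with ethanol and 109 with Dex at 6 h, was called higher (0.22, limma adjusted p = 0.0212 over the named probes).

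**Figure D3:**
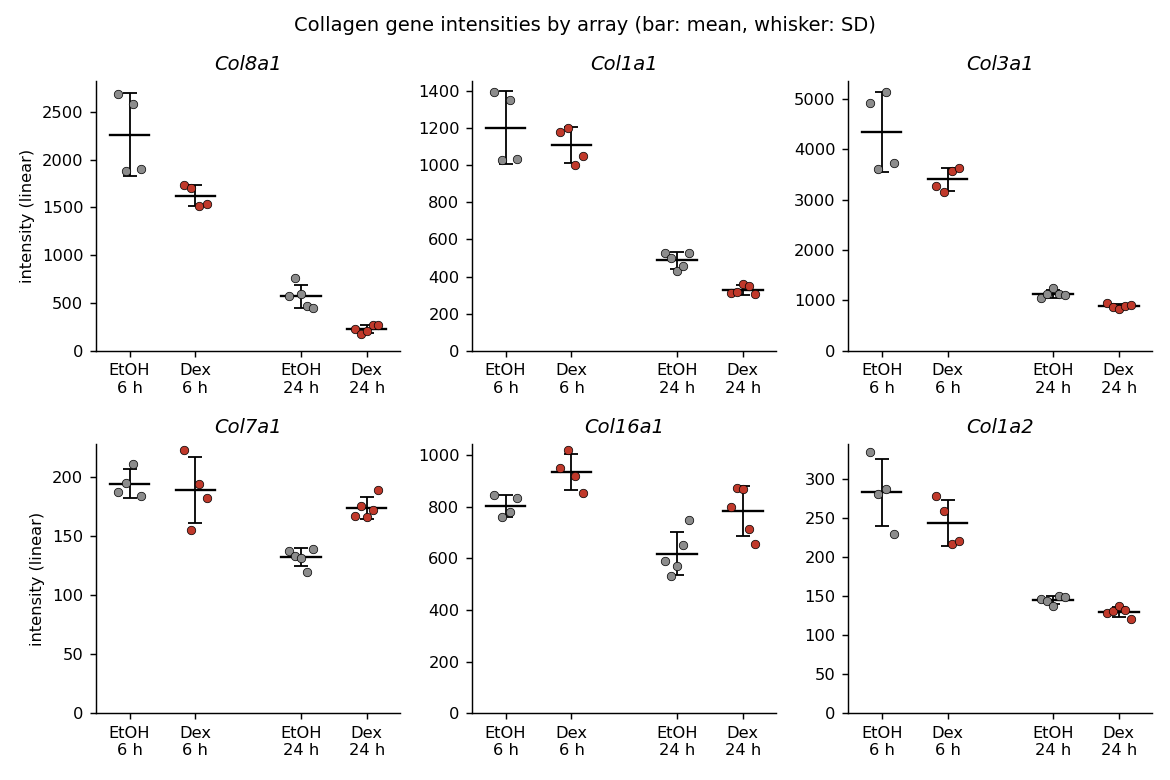
Intensity of 6 collagen genes on each array (linear axes from 0), ethanol in grey and Dex in red at 6 h (n = 4) and 24 h (n = 5), with the mean as a bar and the SD as whiskers. At 24 h Col8a1, Col1a1 and Col3a1 have every Dex point below every ethanol point and Col7a1 every Dex point above, while Col16a1 and Col1a2 overlap. The axis levels of the 2 times are not comparable.

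Of the 7 FACIT collagens, 1 rose and 1 fell at 24 h, where 8.39% of all genes were called higher and 8.10% lower. With 7 genes, 1 call each way says little of the class. At 6 h 0 were called in limma, with 1 higher and 1 lower at an unadjusted p under 0.05. Col16a1, whose chain binds fibrils and cell-surface integrins, read 590, 533, 571, 652 and 748 with ethanol and 798, 874, 869, 715 and 654 with Dex at 24 h. Ethanol replicate 5 lay above Dex replicates 4 and 5, so the groups overlapped (619 ± 84.2 and 782 ± 96.3, SD, n = 5). The log2 fold change was 0.34 (SE 0.09, limma adjusted p = 0.00777), and the call held in all 19 alternatives, with adjusted p up to 0.0385. At 6 h Col16a1 read 846, 758, 779 and 834 with ethanol and 948, 1019, 920 and 852 with Dex, without overlap, but the log2 fold change of 0.22 (SE 0.10) did not pass (limma adjusted p = 0.179). Col9a1, a cartilage FACIT chain, read 112, 114, 112, 118 and 92.0 with ethanol and 90.3, 94.3, 91.6, 100 and 95.5 with Dex at 24 h. Ethanol replicate 5 lay among the Dex arrays, all values were close to background, and the gene was called lower (-0.21, SE 0.07, limma adjusted p = 0.0468). At 6 h its log2 fold change was -0.03 (limma adjusted p = 0.877). It kept the call in 6 of 19 alternatives, and of the 10 arrays at 24 h only leaving out ethanol replicate 5 or Dex replicate 4 kept it. In addition, the mean of its probes turned the sign (0.02), and another of its 4 probes was called higher (0.22, limma adjusted p = 0.00308 over the named probes). Col19a1 read 101, 98.2, 90 and 85.2 with ethanol and 87.8, 91.3, 81.2 and 83.6 with Dex at 6 h, overlapping values with both means below the olfactory receptor 95th percentile (-0.12, SE 0.06, limma adjusted p = 0.221). Col9a2, Col9a3, Col14a1, Col19a1 and Col22a1 had log2 fold changes between -0.12 and 0.04 over both times and were not called.

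Among the other 14 collagens, Col7a1 rose, Col15a1 fell and 12 did not pass the test at 24 h. At 7.14% lower, this class was near the 8.10% of all genes called lower, and 8.39% of all genes were called higher. At 6 h 0 were called in limma, with 0 higher and 2 lower at an unadjusted p under 0.05. Col7a1, the collagen of the anchoring fibrils that fasten epithelial basement membranes, read 137, 133, 132, 120 and 140 with ethanol and 168, 175, 166, 172 and 189 with Dex at 24 h. All 5 Dex arrays lay above all 5 ethanol arrays, and the log2 fold change, 0.40 (SE 0.07, limma adjusted p = 0.000480), was called in all 19 alternatives. At 6 h the arrays read 188, 195, 212 and 184 with ethanol and 223, 156, 195 and 183 with Dex, so the Dex arrays spread on both sides of the ethanol arrays (-0.05, SE 0.08, limma adjusted p = 0.775). The change at 24 h exceeded that at 6 h by 0.45 (SE 0.11, limma adjusted p = 0.0189). Fitting the missing directions, or taking the mean of the gene's probes, ended that call (adjusted p up to 0.0878). The gene's other probe read 89.3 with ethanol at 6 h, below the olfactory receptor 95th percentile, and was not called (0.07 at 24 h, limma adjusted p = 0.595 over the named probes).

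Col15a1, a multiplexin of muscle and capillary basement membranes, read 85.7, 84.9, 105, 81.5 and 91.9 with ethanol and 74.2, 77.1, 69.5, 78.2 and 72.9 with Dex at 24 h. The groups did not overlap and the log2 fold change was -0.27 (SE 0.07, limma adjusted p = 0.0154), but both group means lay below the 95th percentile of the olfactory receptor genes. Without ethanol replicate 3, or once the missing directions were fitted, the call was lost (adjusted p up to 0.0564).

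Collagen VI, the collagen whose loss causes Bethlem and Ullrich muscle disease, did not pass the test in any of its 5 measured chains, of which Col6a1 and Col6a2 read above background. Col6a1 read 2099, 1952, 1704, 1634 and 1775 with ethanol and 1569, 1783, 1750, 1870 and 2011 with Dex at 24 h, and the groups covered the same range (log2 fold change -0.03, SE 0.12, limma adjusted p = 0.911). Its 6 h arrays read 5955, 4613, 4561 and 3247 with ethanol and 6277, 4945, 4488 and 4170 with Dex (0.13, SE 0.13, limma adjusted p = 0.640). Col6a2, its neighbour in the genome, had 0.08 (SE 0.11) at 6 h and -0.18 (SE 0.10) at 24 h, with limma adjusted p of 0.730 and 0.230. Col6a4, Col6a5 and Col6a6, which also neighbour each other, had means below the olfactory receptor 95th percentile at both times and were not called. The other probe of Col6a4, dimmer still at 64.6 with ethanol and 80.1 with Dex at 24 h, was called higher (0.31, limma adjusted p = 0.000168 over the named probes).

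Col18a1, the precursor of the endostatin fragment, went from 1125 ± 82.2 with ethanol to 1227 ± 206 with Dex at 24 h (SD, n = 5), and did not pass (0.11, SE 0.12, limma adjusted p = 0.597). A dimmer probe of the gene, at 95.4 and 115, was called higher (0.26, limma adjusted p = 0.00814 over the named probes). The difference between the probes was not tested. Col17a1, a membrane-spanning collagen, read 141, 128, 126 and 127 with ethanol and 124, 111, 118 and 105 with Dex at 6 h. These groups did not overlap, yet the log2 fold change of -0.19 (SE 0.07) missed the threshold (limma adjusted p = 0.0720), as did -0.14 at 24 h (limma adjusted p = 0.105). Col28a1 read 111, 99.9, 98.2 and 99.9 with ethanol and 85.3, 87.5, 99.3 and 91.2 with Dex at 6 h. Dex replicate 3 lay among the ethanol arrays, both means lay below the olfactory receptor 95th percentile, and the log2 fold change was -0.17 (SE 0.06, limma adjusted p = 0.0826). Col13a1, Col23a1, Col25a1 and Col26a1 were not called, with log2 fold changes between -0.19 for Col25a1 and 0.15 for Col26a1, both at 24 h. Another probe of Col25a1 was called lower at 24 h (-0.20, limma adjusted p = 0.0270 over the named probes). Over all 35 genes, those not called had log2 fold changes from -0.46 to 0.22 at 6 h and from -0.19 to 0.15 at 24 h. At the level of single probes, 1 of the members' 79 probes was called higher and 2 lower at 6 h, where 3.38% of all named probes were called higher and 3.62% lower. At 24 h 5 of the 79 were called higher and 9 lower, where 6.77% of all named probes were called higher and 6.91% lower.

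The Dex effect differed between the times for 3 of the 35 genes (8.57%), Col8a1, Col1a1 and Col7a1, where 4.94% of all genes differed. Col3a1, called at both times, had a difference of -0.02 (SE 0.12, limma adjusted p = 0.955). With the missing directions as covariates each of the 3 missed the threshold.

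Genes that make, bind or break down collagen were taken from 5 lists, 55 measured genes of 59 listed. At 6 h 5 of the 55 rose and 3 fell, where 4.67% of all genes were called higher and 4.39% lower. Once the missing directions were fitted, 1 of them rose (Lox) and 1 fell (Itga11). At 24 h 4 rose and 13 fell, where 8.39% of all genes were called higher and 8.10% lower. The missing directions left 3 higher and 12 lower, without Itga2 and Bmp1. In hydroxylation and glycosylation, the steps that stabilise the helix in the endoplasmic reticulum, 3 of 15 rose at 6 h, and 3 fell at 24 h. In the opposite direction limma called 0 at either time, with 2 lower at 6 h and 2 higher at 24 h at an unadjusted p under 0.05. The rises at 6 h were the prolyl hydroxylase subunit gene P4ha2 (0.32) and the lysyl hydroxylase genes Plod1 (0.26) and Plod3 (0.26). All 3 missed the threshold once the missing directions were fitted, and without Dex replicate 1 or 3 or ethanol replicate 4. Plod1 also missed it without ethanol replicate 2, and P4ha2 and Plod3 without ethanol replicate 3 or Dex replicate 2. Plod3 missed it with the mean of its probes as well. Over the alternatives the log2 fold change of Plod3 went down to 0.05, with limma adjusted p up to 0.678. The calls held in 7 (P4ha2), 8 (Plod1) and 6 (Plod3) of 16 alternatives. At 24 h P4ha1, the other main catalytic subunit of prolyl 4-hydroxylase, fell by 0.31 and the prolyl 3-hydroxylase genes P3h3 and P3h2 by 0.41 and 0.30 on the log2 scale, the last lost with the mean of its probes.

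Of 10 measured genes of folding and export, 1 rose and 1 fell at 6 h, and 1 rose and 3 fell at 24 h. Serpinh1, the collagen chaperone HSP47, fell from 13489 ± 1140 to 10987 ± 858 at 24 h (SD, n = 5, log2 fold change -0.30, limma adjusted p = 0.00401). Fkbp14, a prolyl isomerase of the endoplasmic reticulum, fell by 0.41 and Sec23a, a coat subunit of the vesicles that export procollagen, by 0.37. Tmem38b, the potassium channel TRIC-B of the endoplasmic reticulum, rose at both times, by 0.32 and 0.56, the call at 6 h being lost with normexp, with the missing directions fitted, and without ethanol replicate 3 or Dex replicate 1 or 3. The call lower at 6 h was Creb3l1, a transcription factor that acts on Col1a1 in bone, at -0.27, which held in 5 of 16 alternatives and, of the arrays left out in turn, only without ethanol replicate 4 or Dex replicate 1.

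Of 11 measured genes of procollagen processing and crosslinking, Lox alone rose at 6 h, and at 24 h Lox rose and Pcolce and Bmp1 fell. Lox, the lysyl oxidase that crosslinks fibrils, went from 6112 ± 256 to 9374 ± 268 at 6 h (SD, n = 4, log2 fold change 0.62, limma adjusted p = 9.12e-08) and from 4685 ± 167 to 6297 ± 451 at 24 h (SD, n = 5, 0.42, limma adjusted p = 3.71e-06). Its direction at 24 h was opposite to that of the 4 fibrillar genes called. Pcolce, which enhances removal of the carboxy-terminal propeptide, went from 1749 ± 124 to 1254 ± 86.8 at 24 h (-0.48, limma adjusted p = 0.000216). Bmp1, the proteinase that removes this propeptide, had -0.31 at 24 h (limma adjusted p = 0.0378) and kept the call in 9 of 19 alternatives, losing it without ethanol replicate 2, 3 or 4 or Dex replicate 2, 3, 4 or 5.

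Of 8 measured collagen receptor genes, 1 fell at 6 h, and 1 rose and 2 fell at 24 h. Itga11, the integrin chain that binds fibrillar collagen, went from 857 ± 52.5 to 494 ± 50.3 at 6 h (SD, n = 4, log2 fold change -0.80, limma adjusted p = 0.000163) and had -0.65 at 24 h (limma adjusted p = 0.000316). Ddr2, a receptor tyrosine kinase for fibrillar collagen, fell by 0.34 at 24 h. Itga2, called higher at 24 h, had both means below the olfactory receptor 95th percentile and lost its call without ethanol replicate 1 or 2 or Dex replicate 1. Of 11 genes of degradation and uptake, 1 fell at 6 h, and 1 rose and 3 fell at 24 h. The gelatinase gene Mmp2 rose by 0.52 at 24 h, while the membrane collagenase gene Mmp14 fell by 0.37 and the inhibitor genes Timp1 and Timp2 by 0.78 and 0.35, that of Timp2 being lost without Dex replicate 2. Timp1 was also called lower at 6 h (-0.24, limma adjusted p = 0.0486), a call held in 5 of 16 alternatives and lost without any of ethanol replicates 1, 2 and 3 and Dex replicates 1, 2 and 3.

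**Figure D4:**
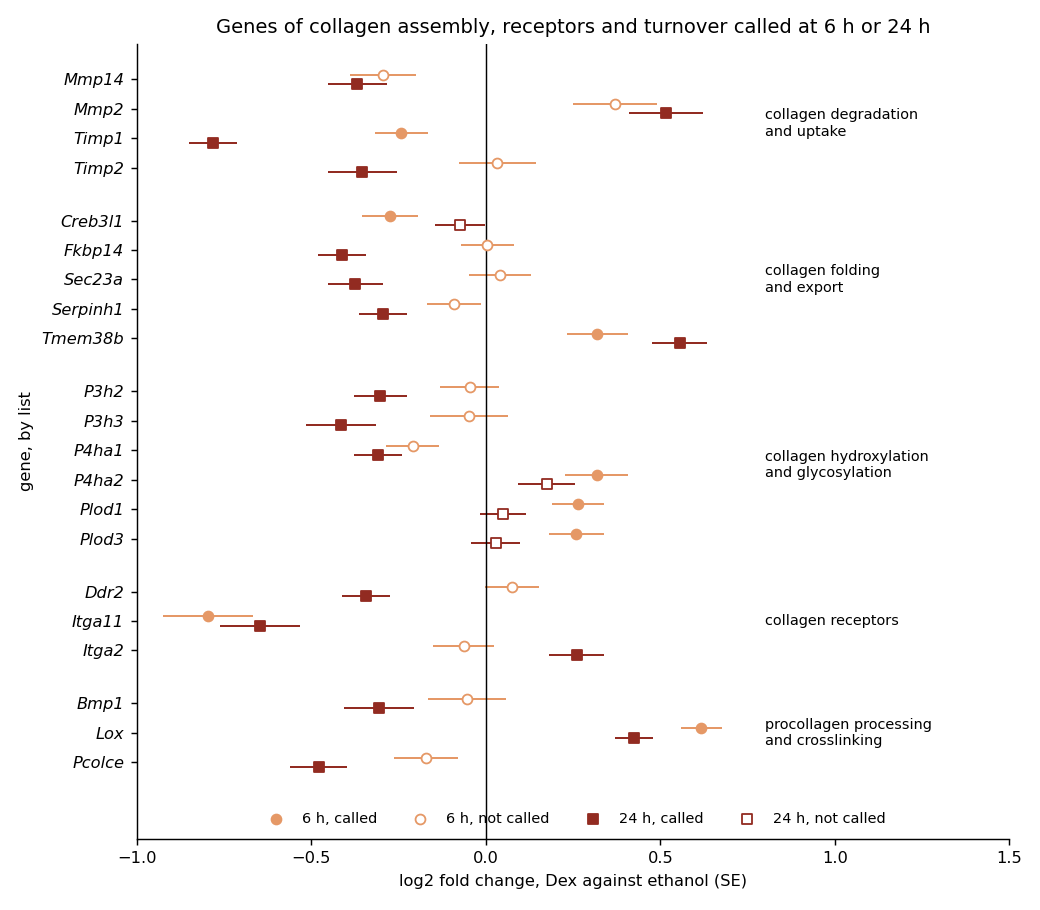
Log2 fold change, Dex against ethanol, with the model's standard error, of the 21 genes from 5 lists of collagen assembly, receptors and turnover that were called at 6 h (circles) or 24 h (squares), filled where called. At 24 h 13 squares are filled to the left of 0 and 4 to the right (Itga2, Lox, Mmp2 and Tmem38b).

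Markers of the cell types the culture could hold were read beside these changes. All 12 measured myotube markers of 13 listed were above the olfactory receptor level, and their summed intensity ranged from 96768 to 119595 with ethanol and from 98525 to 111626 with Dex at 24 h, so the ranges overlapped. Of the 12, 2 rose and 1 fell at 24 h, where 8.39% of all genes were called higher and 8.10% lower. Of 9 measured genes listed as fibroblast markers, 3 rose at 6 h, where 4.67% of all genes were called higher and 4.39% lower. At 24 h 4 rose and 4 fell, and Thy1 and Tcf21 had means below the olfactory receptor 95th percentile. The summed intensity of the 9, most of it Dcn, ranged from 16711.5 to 18508 with ethanol and from 14343 to 16058 with Dex at 24 h, without overlap, and its part in the collagen changes was not tested. Dcn (decorin), Tcf4, Lum and Dpt fell at 24 h, Dcn from 12516 ± 785 to 9911 ± 577 (SD, n = 5), while Fbln1, Pdgfra, Twist2 and Thy1 rose, Fbln1 from 617 ± 48.7 to 1591 ± 136. The listed Tcf4 is the gene of that symbol and not Tcf7l2, whose product is also called TCF4, so its fall is no reading of fibroblasts. The summed intensity of the 9 includes Tcf4 and was not taken without it. At 6 h that sum ranged from 26814 to 29844 with ethanol and from 26361 to 29299.6 with Dex, and those ranges overlapped. Of 5 measured myoblast markers 1 fell and none rose at 24 h, their sum ranging from 4650 to 5364 with ethanol and from 4074 to 4952 with Dex. At 6 h Myf5 was the 1 myoblast marker called, higher with Dex (0.33, limma adjusted p = 0.0175). Of 8 chondrocyte markers 6, and of 5 osteoblast markers 3, had means below the olfactory receptor 95th percentile at 24 h. The chondrocyte sum, most of it Sox9, ranged from 2468 to 2985 with ethanol and from 2370 to 2905 with Dex at 24 h. Of the 8, Acan and Cnmd were called lower at 24 h (-0.23 and -0.21, limma adjusted p = 0.0154 and 0.0265). Both means of Cnmd lay below the olfactory receptor 95th percentile. At 6 h the chondrocyte sum ranged from 6322 to 7157 with ethanol and from 4177 to 4713 with Dex, without overlap. Sox9, a transcription factor that acts on cartilage collagen genes, fell by 0.64 at 6 h (limma adjusted p = 1.23e-05). Its part in the collagen values at 6 h was not tested. The osteoblast sum ranged from 423 to 443 with ethanol and from 420 to 433 with Dex at 24 h. At 6 h Bglap was the 1 osteoblast marker called, lower with Dex (-0.26, limma adjusted p = 0.00982).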

How the data were processed

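Intensities were measured on 18 one-colour Illumina bead arrays, 1 per sample, and samples were grouped by their titles. The deposited values are linear probe intensities that the authors made with lumi, per the submitters' processing notes. The lumi version, background correction and normalization are not given in these sources. The design had assumed log2 values, so log2 was taken with a pseudocount of 0. Of 45281 probes 34885 had 1 gene symbol, 18 several and 10378 none, and symbols were updated through the gene identifier for 34807 and kept for 78. One limma 3.58.1 model (R 4.3.3, lmFit and eBayes) with a mean per group was fitted over all 19057 genes, without a replicate block, with Benjamini-Hochberg adjustment over all genes and calls at an adjusted p under 0.05. It was also run on simulated arrays with independent noise. Those arrays did not hold the missing directions or opposed deviations of the real data, so that run does not bear on either. The number of arrays limits the precision.

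The members and lists were chosen with earlier results of these data known. Values on every array are given for members called with an absolute log2 fold change of at least 0.5 and for the 2 with the smallest p per class and time (some for 1 time only). Other called members have fold change and adjusted p, the rest ranges and counts. Of each list the called genes with the smallest p are named, at most 4 per list and time. A gene was near background where both group means lay under the olfactory receptor 95th percentile. Alternatives were each time alone, the replicate block, the mean of a gene's probes, quantile normalization, normexp (offset 16), genes above the median only, array weights, missing directions as covariates, no arrays numbered 1 at 24 h, and each replicate left out. The alternatives for the 5 lists and chain ratios were chosen after seeing the data.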

Additional observations from a re-analysis of the deposited data

Results flagged for a closer look

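The Dex effect differed between the times, by the interaction in limma, for Col8a1 (-0.83 on the log2 scale, 24 h minus 6 h), Col1a1 (-0.46) and Col7a1 (0.45). Among genes of collagen assembly, receptors and turnover it differed for Timp1 (-0.54), Ddr2 (-0.42), Fkbp14 (-0.42), Loxl4 (-0.42), a lysyl oxidase relative, and Sec23a (-0.42). With the missing directions as covariates Timp1 was the 1 gene of these 8 that kept its call. The difference for Sec23a passed in 10 of 26 alternatives and was lost on leaving out any of 12 arrays, and that for Loxl4 passed in 17 of 26, was lost without any of 6 arrays and was -0.0557 with the mean of its probes.

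In 4 of 60 gene and group combinations 1 array stood far from the others by Dixon's criterion, which flags about 1 in 20 by chance. Col17a1 and Col28a1 read highest on ethanol replicate 1 at 6 h, at 141 with the others from 126 to 128, and at 111 with the others from 98.2 to 99.9. Col8a2 read lowest on Dex replicate 3 at 24 h, at 77.3 with the others from 81.6 to 83.2. Col9a1 read lowest on ethanol replicate 5 at 24 h, at 92.0 with the others from 112 to 118.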

How the results depend on the processing

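At 24 h Col8a1, Col1a1, Col3a1, Col7a1 and Col16a1 kept direction and call in all 19 alternatives, with log2 fold changes of -1.18 or lower and from -0.64 to -0.52, -0.41 to -0.32, 0.23 to 0.57 and 0.29 to 0.47. The calls of Col5a1, Col5a2, Col9a1 and Col15a1 did not hold throughout, and Col9a1 reversed to 0.0172 with the mean of its probes. The count of collagen genes lower at 24 h, 7, became 4 with normexp and 3 with the missing directions as covariates, which leave fewer residual degrees of freedom. Each time fitted alone gives no value for the difference between times. Leaving out 1 array gave 4 to 7, with 4 without ethanol replicate 3, ethanol replicate 4 or Dex replicate 2. The median at 24 h, -0.0314, became -0.0565 with the mean of the probes, -0.0759 with normexp, -0.143 over the 17 members above the median intensity and -0.0449 with array weights, and -0.0501 to -0.0278 leaving out 1 array. At 6 h the count lower, 1, became 0 with the mean of the probes, 2 among genes above the median, 0 with the missing directions, and 0 to 3 leaving out 1 array. It was 0 without ethanol replicate 1 or 3 or Dex replicate 2, 2 without ethanol replicate 2 or Dex replicate 3, and 3 without ethanol replicate 4. The count of genes whose Dex effect was lower at 24 h than at 6 h, 2, became 1 with the replicate block, the mean of the probes, normexp, array weights or without both arrays numbered 1, 0 with the missing directions (where the count higher, 1, also became 0), and 1 to 3 leaving out 1 array. Over all genes, the missing directions gave 850, 1694 and 232 calls in the 3 comparisons (1726, 3142 and 942 otherwise), array weights 1079 and 5552 at 6 h and 24 h, each time alone 908 at 6 h and the replicate block 532 for the difference between times. The replicate numbers are not said to mark a shared culture or day, so they were not taken as pairs. The deviations of same-numbered arrays had correlations of -0.08 to 0.26 at 6 h and -0.93 to -0.19 at 24 h, and the source of these was not tested. Updated symbols found the same 35 members. Without detection p-values, changes in the members near background are bounded only by the noise of dim probes.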

Other observations

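With ethanol alone, several collagen probes read lower at 24 h than at 6 h: 1203 ± 197 and 487 ± 44.2 for Col1a1, 4352 ± 792 and 1131 ± 75.4 for Col3a1, 2262 ± 435 and 568 ± 125 for Col8a1, and 4594 ± 1106 and 1833 ± 190 for Col6a1 (SD, n = 4 at 6 h and 5 at 24 h). The array medians differed by far less, but they lay within the olfactory receptor range at each time, so they do not describe bright probes. Other genes differed between the times too. With ethanol Myh1 read 6217 at 6 h and 2137 at 24 h and Actn2 6529 and 1555, while Myog read 3673 and 5540. How the 2 times were normalized is not given, and no test was made across them. The other probe of Col3a1 went the opposite way, at 164 at 6 h and 285 at 24 h.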
